A study of Mus musculus with 6 samples.

Results

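Hyaluronan is a long unbranched sugar polymer of the pericellular matrix. The 9 genes described here cover its synthesis (Has1, Has2 and Has3), its breakdown (Hyal1 and Hyal2), its receptors at the cell surface (Cd44 and Hmmr) and proteins that bind it in the matrix (Vcan and Tnfaip6). They were picked by symbol for their known roles, with earlier results of these data known, and are 9 of the 22349 named genes on the arrays. Synthases in the plasma membrane build the chain from UDP-sugars and push it out of the cell. Hyaluronidases cut it at the surface and in lysosomes, receptors hold it or take it up, and proteoglycans and linking proteins crowd onto it. In marrow stroma the resulting coat is known as part of the niche of blood-forming cells and as a substrate for adhesion.

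The cells were mesenchymal stem cells (MSC), the adherent stromal cells of marrow, taken from mouse bone marrow and grown in a commercial stem cell medium. Dense cultures were seeded with 2500000 cells and sparse cultures with 15000 cells, and RNA was collected 1, 2 and 3 days after seeding. RNA of each density and day was read on 1 Affymetrix array, so that each density has 3 arrays. Strain, sex and age of the mice, the number of animals and the dish area are not stated in the labels, and dense and sparse name the seeding, not a measured confluence. The labels call the cell samples independent, but they do not say whether the 3 arrays of a density come from separate cultures or animals or from 1 culture series followed over days, and all 6 titles share a prefix, MSC and a number, that they do not explain. Since no density was read more than once on a day, p-values measure the scatter of arrays around the fitted day effects and not the spread of replicate cultures. In bulk samples, fewer cells of a type and less RNA per cell cannot be told apart.

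The arrays held 35556 probe sets and had median log2 values between 4.33 and 4.45. All 12 MSC markers on the list lay above the filter on low values. Their mean log2 level was between 8.12 and 8.44 in dense arrays and between 7.42 and 7.49 in sparse arrays. By limma's test 7 of them were higher and 1 (Alcam) lower in dense cultures, against 8.26% and 2.90% of all tested genes. The 36 markers of other marrow cells (macrophages, granulocytes, lymphocytes, endothelium, erythroid cells and osteoclasts) had mean log2 levels between 3.44 and 3.57 in dense arrays and between 3.52 and 3.60 in sparse arrays. Of these, 17 lay below the filter, the leukocyte marker Ptprc among them, and the rest lay above it. The macrophage list's Cd68 (log2 4.57 to 4.93) and the erythroid list's Hba-a1 (4.59 to 5.20) lay above the array medians. The MSC marker Eng (4.11 to 4.52) lay below both. The 17 below the filter were not tested for density. Of the rest 0 passed, although the osteoclast list's Ctsk reached a log2 value of 8.30 in dense cultures.

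Each member had 1 probe set, and 8 of 9 passed the filter, a mean log2 value of at least 3.32 over the 6 arrays. Density was tested with limma with the day as a factor, and a gene was called at an adjusted p under 0.05 over 16762 genes (Benjamini-Hochberg). Of the 8 tested members, 2 were higher (Tnfaip6 and Vcan) and 1 was lower (Cd44) in dense cultures. Over all tested genes 11.2% were called, 8.26% higher (1384 genes) and 2.90% lower (486 genes). Quantile-normalizing the values again gave 1085 and 816. The median log2 difference, dense minus sparse, was 0.46 over the 8 members and -0.05 over all tested genes. Without both arrays of day 2, 0 genes passed, with 2531 at an unadjusted p under 0.05, and the limma adjusted p was 0.0803 for Tnfaip6, 0.132 for Vcan and 0.157 for Cd44.

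**Figure D1:**
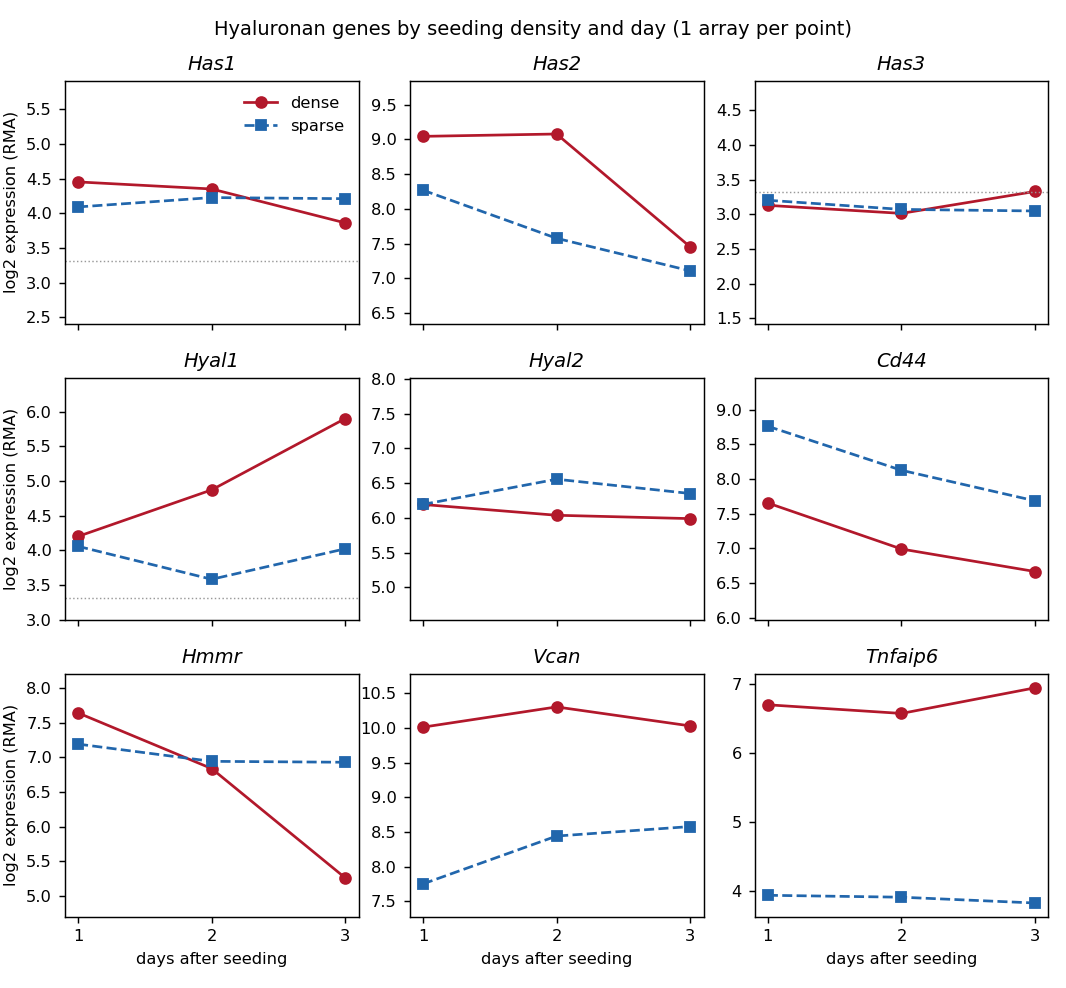
Log2 expression of each of the 9 hyaluronan genes (y axis) against days after seeding (x axis), with dense cultures as solid lines and circles and sparse cultures as dashed lines and squares, 1 array per point; the dotted line is the filter value of 3.32. Dense lies above sparse on 3 of 3 days for Tnfaip6, Vcan, Has2 and Hyal1, and below on 3 of 3 days for Cd44 and Hyal2. On day 1 the difference is only 0.14 for Hyal1 and -0.001 for Hyal2. Has3 lies near or below the dotted line throughout.

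Among the synthases, Has2, the main hyaluronan synthase of mesenchymal cells, had the largest density difference. Its log2 values were 9.05, 9.08 and 7.45 on days 1 to 3 in dense cultures, against 8.27, 7.58 and 7.11 in sparse cultures. Dense was higher on each day, by 0.78, 1.50 and 0.35, but its day 3 value lay below the sparse values of days 1 and 2. The difference of 0.88 ± 0.23 (SE, 95% interval 0.31 to 1.44, 3 arrays per density), or 1.83-fold, did not pass (limma adjusted p = 0.0628). The 95% intervals given here are for single genes and are not adjusted for the number of genes tested. Leaving out 1 day at a time gave differences of 0.56 to 1.14. Has2 passed only without both arrays of day 3, the day with the smallest gap (1.14, limma adjusted p = 0.00882). That fit has 1 residual degree of freedom.

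Has1 had log2 values of 4.45, 4.35 and 3.86 in dense cultures, against 4.09, 4.23 and 4.21 in sparse cultures. The groups overlapped, and the difference of 0.05 ± 0.17 (SE, 95% interval -0.37 to 0.46) did not pass (limma adjusted p = 0.862). Has3 had 3.13, 3.01 and 3.33 in dense cultures, against 3.20, 3.07 and 3.05 in sparse cultures, all near or below the filter value, and it was not tested.

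Of the hyaluronidases, Hyal1, the lysosomal enzyme that cuts hyaluronan into small pieces, had a larger gap between densities on each later day. The log2 values of Hyal1 were 4.20, 4.87 and 5.90 in dense cultures, against 4.06, 3.58 and 4.02 in sparse cultures. The groups did not overlap, with day differences of 0.14, 1.29 and 1.88. The mean difference of 1.10 ± 0.32 (SE, 95% interval 0.30 to 1.90), or 2.15-fold, did not pass (limma adjusted p = 0.0779). Leaving out 1 day at a time gave differences of 0.72 to 1.58. Hyal1 passed only without both arrays of day 1, the day with the smallest gap (1.58, limma adjusted p = 0.0153). That fit too has 1 residual degree of freedom.

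Hyal2, a membrane-anchored enzyme that cuts long chains into mid-sized ones, had log2 values of 6.19, 6.04 and 5.99 in dense cultures, against 6.19, 6.56 and 6.35 in sparse cultures. Every dense value lay below every sparse one, on day 1 by less than 0.01. The difference was -0.29 ± 0.14 (SE, 95% interval -0.65 to 0.06) and did not pass (limma adjusted p = 0.206). Non-overlapping groups are common on these arrays: 5 of the 8 tested members had them (Hyal1, Vcan and Tnfaip6 above, Hyal2 and Cd44 below), and so did 39.9% of all tested genes, 20.9% above and 19.0% below.

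Cd44 encodes the principal hyaluronan receptor of most cells. On days 1 to 3 it had log2 values of 7.65, 6.99 and 6.67 in dense cultures, against 8.76, 8.13 and 7.68 in sparse cultures. The dense arrays lay below the sparse ones without overlap, and the day differences of -1.11, -1.14 and -1.02 were nearly equal. Dense cultures thus had 2.12-fold lower Cd44 (log2 difference -1.09 ± 0.11, SE, 95% interval -1.37 to -0.80, limma adjusted p = 0.0100). With no block for the day the difference did not pass (limma adjusted p = 0.0622); the values were lower on each later day at both densities. One probe set cannot tell the splice forms of Cd44, or of Vcan, apart.

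Hmmr encodes a hyaluronan-binding protein that also sits on the mitotic spindle. The probe set read 7.64, 6.84 and 5.26 in dense cultures, against 7.19, 6.94 and 6.93 in sparse cultures. The groups overlapped: dense was higher on day 1 by 0.45 and lower on day 3 by a log2 difference of -1.67. Averaged over days the difference was -0.44 ± 0.39 (SE, 95% interval -1.41 to 0.53) and did not pass (limma adjusted p = 0.447). Without both day 3 arrays it was 0.17.

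Vcan encodes versican, a large chondroitin sulfate proteoglycan whose head domain binds hyaluronan. The log2 values of Vcan were 10.01, 10.30 and 10.03 in dense cultures, against 7.75, 8.44 and 8.58 in sparse cultures. The groups lay far apart, with day differences of 2.26, 1.86 and 1.45. Vcan was 3.62-fold higher in dense cultures (log2 difference 1.86 ± 0.18, SE, 95% interval 1.42 to 2.30, limma adjusted p = 0.00833).

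Tnfaip6 encodes a secreted protein that binds hyaluronan and moves heavy chains of inter-alpha-inhibitor onto it, and it is induced by inflammatory cytokines. Its log2 values were 6.70, 6.58 and 6.95 in dense cultures, against 3.94, 3.91 and 3.83 in sparse cultures. The spread within each density was small, 6.74 ± 0.19 in dense and 3.89 ± 0.06 in sparse arrays (mean ± SD, n = 3 each), beside the gap between them. Tnfaip6 was 7.21-fold higher in dense cultures (log2 difference 2.85 ± 0.14, SE, 95% interval 2.51 to 3.20, limma adjusted p = 0.00379). The 3 sparse values lay under the array medians, so the size of the fold is uncertain.

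The authors' deposited table, made without the day, gives unadjusted p-values of 1.53e-05 for Tnfaip6, 0.00243 for Vcan and 0.0634 for Cd44. Adjusted over all 35556 probe sets, Vcan had 0.121 and Cd44 0.267, which did not pass.

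**Figure D2:**
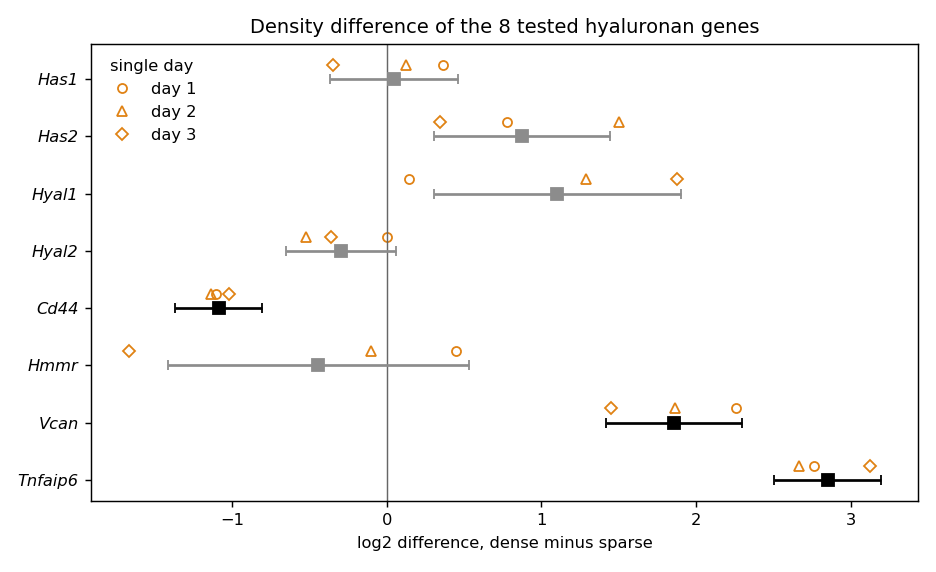
Log2 difference, dense minus sparse (x axis), of the 8 tested hyaluronan genes (y axis), with the fitted value and its 95% interval as bars and the 3 single days as open symbols. The intervals of Tnfaip6, Vcan, Has2 and Hyal1 lie above 0 and that of Cd44 below 0. They are not adjusted for the number of genes tested, and Has2 and Hyal1 did not pass the adjusted test. The single days of Cd44 lie close together, while those of Has1 and Hmmr lie on both sides of 0.

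The promoters of the 2 members that were higher in dense cultures are shown with the motifs that a search of both strands found. They are the 300 bases around the annotated start (250 before it and 50 from it on), from RefSeq on GRCm38.p6, and 7 of the 9 members had an entry. In Tnfaip6 the capitals mark TGAGTCA, a match to the AP-1 site TGANTCA, at -142 and CATTCC, the reverse complement of the TEAD site GGAATG, at -8; in Vcan they mark the GC box GGGCGG at -219 and, reversed, at -10, and ATTGG, the reverse complement of the CCAAT box, at -103. Positions count from 1 at the first base of the gene, with -1 before it, and give the first base of the motif.
Tnfaip6, chr2:52037863-52038162, plus strand: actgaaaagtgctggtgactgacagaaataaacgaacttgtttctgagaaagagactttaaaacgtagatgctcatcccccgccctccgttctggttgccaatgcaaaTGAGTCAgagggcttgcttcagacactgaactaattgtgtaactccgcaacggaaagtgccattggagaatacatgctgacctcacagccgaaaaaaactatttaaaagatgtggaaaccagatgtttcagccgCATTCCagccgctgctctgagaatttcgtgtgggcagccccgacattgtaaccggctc
Vcan, chr13:89742463-89742762, minus strand: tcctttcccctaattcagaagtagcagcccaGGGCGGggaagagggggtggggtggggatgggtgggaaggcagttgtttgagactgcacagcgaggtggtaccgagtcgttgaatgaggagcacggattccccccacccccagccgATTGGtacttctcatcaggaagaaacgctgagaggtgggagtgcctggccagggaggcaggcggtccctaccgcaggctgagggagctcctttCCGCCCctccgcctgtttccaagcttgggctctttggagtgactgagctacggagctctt

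The Tnfaip6 window also held CCAAT at -152, ATTGG at -81 and a reversed GC box at -171, in lower case. Of 32841 such windows, 7.81% held TGANTCA and 14.7% held GGAATG. Further, 37.4% held CCAAT and 19.5% held GGGCGG at least 2 times. Neither window matched a 10-letter NF-kB site, found in 0.411% of windows, nor the TATA box TATAAA, found in 13.6%. These are matches of letters and not measured binding.

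The course over days was tested as a log2 change per day (slope) within each density, on 3 arrays each, in 1 limma fit. In dense cultures Hmmr and Cd44 fell and Hyal1 rose, 3 of the 8 tested members; 4.34% of all tested genes passed, 2.64% lower and 1.71% higher with time. Hmmr fell by 1.19 ± 0.12 per day (SE, limma adjusted p = 0.00895) and was 5.20-fold lower on day 3 than on day 1. Hyal1 had a slope of 0.85 ± 0.14 (SE, limma adjusted p = 0.0215) and was 3.25-fold higher on day 3 than on day 1. Ctsk, the cathepsin K gene on the osteoclast marker list, rose with it in dense cultures (slope 0.83, limma adjusted p = 0.0188, 3.17-fold higher on day 3 than on day 1), with log2 values of 6.64, 7.12 and 8.30 in dense cultures, against 6.27, 5.73 and 5.68 in sparse cultures. Of the other markers on that list, Acp5 did not pass (limma adjusted p = 0.331), and Calcr and Oscar lay below the filter; the part of osteoclasts in the Hyal1 slope was not tested. Cd44 fell by 0.49 ± 0.10 per day (SE, limma adjusted p = 0.0368).

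The other slopes in dense cultures did not pass: -0.80 for Has2, whose value dropped only between days 2 and 3, -0.30 for Has1, -0.10 for Hyal2, 0.01 for Vcan and 0.12 for Tnfaip6. In sparse cultures 0 of 8 members passed, against 0.0776% of all tested genes (0.0298% rising and 0.0477% falling), or 13 genes; 2648 genes had an unadjusted p under 0.05. The sparse slope of Cd44, -0.54, was slightly steeper than its dense slope, -0.49, with the same SE (0.10), but had a limma adjusted p of 0.116. The adjustment was made for each slope separately and fewer genes passed in sparse cultures, so the larger adjusted p does not show a weaker fall there. The sparse slopes of Has2 (-0.58) and Vcan (0.41) did not pass either. The difference of slopes, dense minus sparse, passed for 0 of 8 members and 0.191% of all tested genes (0.0776% with a higher and 0.113% with a lower slope in dense cultures). It was -1.06 ± 0.17 for Hmmr (SE, limma adjusted p = 0.0669), 0.87 ± 0.19 for Hyal1 (SE, limma adjusted p = 0.102) and 0.04 ± 0.14 for Cd44 (SE, limma adjusted p = 0.914).

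Slopes on 3 arrays lean on each of them. Without the dense day 1 array Cd44 had -0.32 (limma adjusted p = 0.439), and without the dense day 3 array it had -0.66 (limma adjusted p = 0.0675) and Hyal1 0.67 (limma adjusted p = 0.124). Has2 had -1.63 without dense day 1 and 0.03 without dense day 3, so its slope rests on dense day 3. With any single sparse array left out, which leaves the dense slopes as they are and 1 residual degree of freedom, the limma adjusted p was 0.0776 for Hmmr, 0.0808 for Hyal1 and 0.132 for Cd44.

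**Figure D3:**
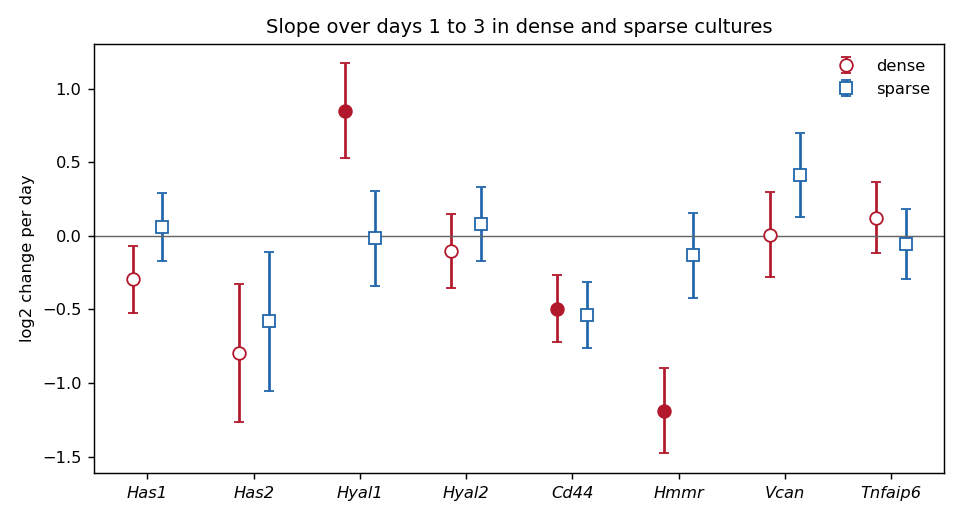
Log2 change per day (y axis) of the 8 tested hyaluronan genes (x axis) in dense and sparse cultures with 95% intervals; filled symbols passed limma's test at an adjusted p under 0.05. Filled are the dense slopes of Hyal1 (0.85), Cd44 (-0.49) and Hmmr (-1.19), and no sparse slope is filled. The intervals are not adjusted for the number of genes tested, so some open symbols have intervals that leave out 0.

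Hmmr moved with genes of the mitotic spindle. Of 20 spindle and mitosis genes, 0 passed the density test (median difference -0.53). In dense cultures 20 of 20 fell over days, with slopes from -1.44 to -0.83, against 2.64% of all tested genes. These 20 calls were not followed gene by gene with single arrays left out. In fits without a sparse array, 0 of all tested genes were called lower. Each had its lowest value on the dense day 3 array, and each lay lower in dense than in sparse cultures on day 3, by -2.45 to -0.92. On day 1, 15 of 20 were higher in dense cultures. The share of all tested genes with such single-day patterns was not counted. In sparse cultures 0 of 20 passed, with slopes from -0.47 to 0.15. Anln, an actin-binding protein of the cleavage furrow, had the largest density difference (-1.03, limma adjusted p = 0.143), followed by the mitotic kinase Plk1 (-0.98, limma adjusted p = 0.168). Pearson's r of these genes with Hmmr over the 6 arrays ran from 0.948 to 0.998 with a median of 0.977, a description of genes that share the same arrays.

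The gene with the pattern most like that of Hmmr was Kif11, a spindle motor (r = 0.998), followed by the kinetochore gene Kntc1 and by Cdca3. Kif11 had log2 values of 8.85, 8.17 and 6.46 in dense cultures, against 8.48, 8.24 and 8.21 in sparse cultures. As for Hmmr, only the dense day 3 array lay well below the others. The Hmmr and Kif11 promoters are shown because the levels of these genes ran together. The capitals mark 2 motifs. The first is the CCAAT box, which reads ATTGG on the other strand, as all matches here do; the second is the cell cycle homology region, TTTGAA or its reverse complement.
Hmmr, chr11:40733388-40733687, minus strand: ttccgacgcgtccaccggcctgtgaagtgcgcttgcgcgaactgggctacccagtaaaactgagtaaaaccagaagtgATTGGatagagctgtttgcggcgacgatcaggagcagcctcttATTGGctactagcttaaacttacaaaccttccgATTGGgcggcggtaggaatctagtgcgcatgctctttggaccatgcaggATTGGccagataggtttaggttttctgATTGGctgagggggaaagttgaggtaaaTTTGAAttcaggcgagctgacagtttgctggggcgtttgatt
Kif11, chr19:37376132-37376431, plus strand: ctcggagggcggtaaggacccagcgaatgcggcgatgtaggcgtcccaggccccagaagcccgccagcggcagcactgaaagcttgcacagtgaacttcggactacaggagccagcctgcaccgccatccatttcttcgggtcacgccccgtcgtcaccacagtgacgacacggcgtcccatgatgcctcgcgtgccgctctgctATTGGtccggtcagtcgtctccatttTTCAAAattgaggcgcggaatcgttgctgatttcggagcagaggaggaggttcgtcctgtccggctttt

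Hmmr had ATTGG at -172, -129, -96, -47 and -20 and TTTGAA at 9, and Kif11 had ATTGG at -45 and TTCAAA at -19. The ATTGG at -96 in Hmmr overlaps a GC box at -93. Of all windows, 89 (0.271%) held 5 or more CCAAT boxes, and 17.9% held TTTGAA. Of the 20 spindle and mitosis genes, 17 had a window. Of these, 14 (82.4%) held CCAAT, against 37.4% of all windows, and 11 (64.7%) held TTTGAA. The AP-1 site was in 0 of the 17 and in 7.81% of all windows, and 17 genes are too few to show a lack of it. A gene counted if any of its windows held the motif, whereas the shares are per window. CCAAT and TTTGAA are known from cell cycle promoters, but a match does not show that either is used in these cells.

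**Figure D4:**
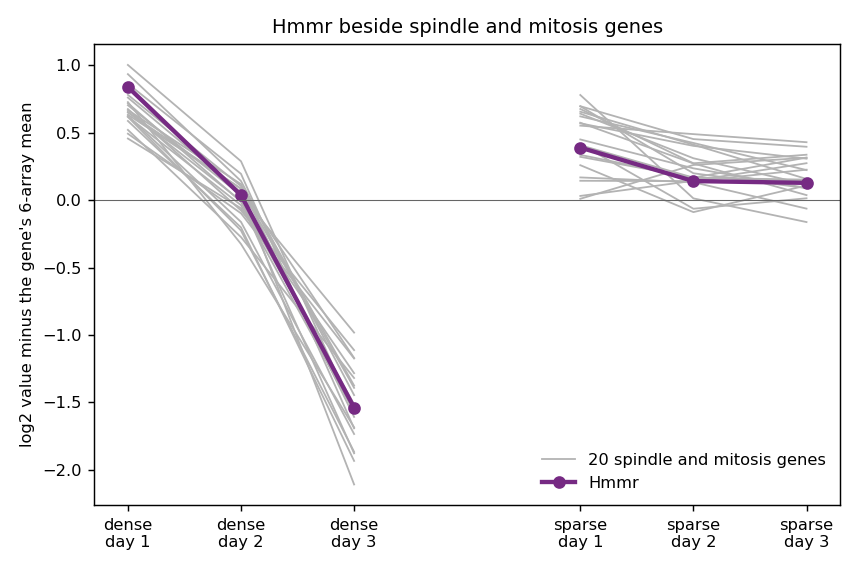
Log2 value minus the gene's mean over the 6 arrays (y axis) for Hmmr (thick line with points) and 20 spindle and mitosis genes (grey lines) on each array (x axis, dense days 1 to 3 and then sparse days 1 to 3). All lines have their lowest point on dense day 3 and vary less over the sparse arrays than over the dense arrays.

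Likeness to the other members was also described by Pearson's r over the 6 arrays, among genes with an SD of at least 0.5. Tnfaip6 ran closest to Nos2, the inducible nitric oxide synthase (0.998), Spry3 (0.997) and the chemokine gene Cxcl5 (0.996). Vcan ran closest to Pex7 (0.998), the collagen prolyl hydroxylase gene P4ha1 (0.997) and the cell cycle inhibitor gene Cdkn1b (0.997). Cd44 was most like the phosphatase gene Dusp5 (0.999), Ubash3b (0.999) and Gprc5a (0.998). Hyal1 was most like Kcnt2 (0.997), Mmp28 (0.994) and the cholesterol exporter gene Abca1 (0.994). The closest genes to Has2 were Zwilch (0.924), Gjb2 (0.921) and Synpo (0.921), to Has1 Cdkn3 (0.979), Cks2 (0.967) and Chd3 (0.960), and to Hyal2 Cbr3 (0.968), Hist1h1d (0.962) and Ubtd1 (0.940). Has1 and Hyal2 themselves varied little over the 6 arrays (SD 0.21 each), under the SD asked of the other genes. With 6 arrays such values are common for several members. Of the 1838 genes with an SD of at least 0.5, 222 exceeded 0.95 with Vcan and 210 with Tnfaip6. The counts were 109 with Hyal1, 98 with Hmmr, 77 with Cd44, 4 with Has1, 2 with Hyal2 and 0 with Has2.

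Around the members, 143 further genes in 9 lists were set out by role, of which 128 were tested; density calls numbered 30 higher and 4 lower, against the 8.26% and 2.90% of all tested genes. Of 14 genes that supply the UDP-sugars, 3 were higher and 0 lower (median 0.30). These were the hexokinase Hk2 (1.12, limma adjusted p = 0.0497) and 2 enzymes of the hexosamine branch, Pgm3 (0.80, limma adjusted p = 0.0371) and its rate-limiting Gfpt1 (0.60, limma adjusted p = 0.0377). Gnpnat1, of the same branch, had 1.17 (limma adjusted p = 0.0589) and Pgm2 0.70 (limma adjusted p = 0.0531) without passing. Without both day 1 arrays Hk2 had 0.77 (limma adjusted p = 0.0711) and Gfpt1 0.64 (limma adjusted p = 0.0641), while Gnpnat1 passed without day 1 (limma adjusted p = 0.0446) or day 3 (limma adjusted p = 0.0247), and Pgm2 without day 3 (limma adjusted p = 0.00824). Both passed with no block for the day (limma adjusted p = 0.0417 and limma adjusted p = 0.0332). Hk2 passed narrowly and was lost in 7 of 12 alternatives, among them no filter (limma adjusted p = 0.0590), the mean of a gene's probe sets (limma adjusted p = 0.0509), every probe set on its own (limma adjusted p = 0.0597) and quantile normalization (limma adjusted p = 0.0557). Pgm3 was lost with quantile normalization (limma adjusted p = 0.0518). Uap1l1 rose over days in dense cultures (slope 0.59, limma adjusted p = 0.0258), but not without dense day 3 (slope 0.40, limma adjusted p = 0.357). Ugdh, which makes the UDP-glucuronic acid of the chain, had 0.02 (limma adjusted p = 0.933) and was added to the named genes after its value was seen.

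Of 9 tested genes for other enzymes of hyaluronan and related sugar chains, 7 were higher in dense cultures and 0 lower, with a median difference of 1.22. The largest was Cemip, listed on the arrays as 9930013L23Rik, whose product binds hyaluronan and is needed for its breakdown by human fibroblasts. Its log2 values lay between 7.09 and 9.04 in dense cultures, with the highest on day 2, and between 5.24 and 5.90 in sparse cultures, without overlap. The difference of 2.44 ± 0.30 (SE, limma adjusted p = 0.0135) was 5.41-fold. Tmem2, a transmembrane relative of Cemip, was higher by 0.93 (limma adjusted p = 0.0138).

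Lysosomal or secreted glycosidases among these genes were Hpse (2.00), Idua (1.23), Naglu (1.22) and Hexa (0.88), with limma adjusted p-values of at most 0.0378. The product of Hexa acts in releasing terminal hexosamines, from hyaluronan fragments among others, whereas Hpse, Naglu and Idua act on heparan sulfate, and Idua also on dermatan sulfate. Tmem2 and Hexa fell outside the naming rule and were named after their values were seen. Idua (slope 0.59) and Naglu (slope 0.55) also rose over days in dense cultures, but not without dense day 3 (limma adjusted p = 0.290 and limma adjusted p = 0.103), nor Naglu without dense day 1 (limma adjusted p = 0.151). With quantile normalization Idua missed the threshold for density (limma adjusted p = 0.0505). Gusb (0.13) and the hyaluronidase gene Hyal3 (-0.05) did not pass.

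Among 9 other hyaluronan receptor genes (median -0.01), 1 passed, the innate immune receptor gene Tlr2 (0.69, limma adjusted p = 0.0392), which missed the threshold without the arrays of day 1 (limma adjusted p = 0.0756) or day 3 (limma adjusted p = 0.0530), or with quantile normalization (limma adjusted p = 0.0633). Tlr4 had 0.45 (limma adjusted p = 0.117) and Ptprg 0.23 (limma adjusted p = 0.428).

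Of 15 tested genes for other matrix proteins that bind hyaluronan, 2 were higher in dense cultures and 0 lower (median -0.13). Ptx3 encodes a pentraxin that joins heavy chains on hyaluronan into a network, together with the product of Tnfaip6. Ptx3 had log2 values of 8.70, 8.59 and 9.05 in dense cultures, against 5.25, 5.60 and 6.21 in sparse cultures. It was 8.54-fold higher (3.09 ± 0.16, SE, limma adjusted p = 0.00379). Itih2, the gene of a heavy chain of inter-alpha-inhibitor, had 6.49, 7.06 and 7.68 in dense cultures, against 5.43, 4.77 and 4.58 in sparse cultures. It was 4.45-fold higher (2.15 ± 0.37, SE, limma adjusted p = 0.0269) and rose over days in dense cultures (slope 0.60, limma adjusted p = 0.0251), but not without dense day 1 (limma adjusted p = 0.0732) or day 3 (limma adjusted p = 0.153). Hapln4 (1.29, limma adjusted p = 0.104), a link protein gene, reached its high value of 7.54 only on dense day 3, and the heavy chain relative Itih5 (1.12, limma adjusted p = 0.102) passed without both day 1 arrays (1.67, limma adjusted p = 0.0213).

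Of 15 tested partners and sheddases of CD44, 3 were higher and 3 lower in dense cultures (median -0.12). Lower were the gelatinase Mmp9 (-3.05, limma adjusted p = 0.0390), the membrane-cytoskeleton linker gene Ezr (-0.92, limma adjusted p = 0.0385) and the receptor kinase gene Met (-0.88, limma adjusted p = 0.0284). Mmp9 had log2 values of 4.32, 4.50 and 4.87 in dense cultures, against 8.87, 8.08 and 5.90 in sparse cultures. The gap narrowed from day to day, and without both day 1 arrays Mmp9 had -2.31 (limma adjusted p = 0.0673). Ank3, an ankyrin gene (0.76, limma adjusted p = 0.0387), and Spp1, the gene of the CD44 ligand osteopontin (0.68, limma adjusted p = 0.0327), were higher. With no block for the day, Met (limma adjusted p = 0.0645) and Ank3 (limma adjusted p = 0.0674) did not pass, nor did Ank3 with quantile normalization (limma adjusted p = 0.0518). The membrane protease gene Mmp14 (0.60, limma adjusted p = 0.0518) and the Ezr relative Msn (-0.58, limma adjusted p = 0.0589) did not pass; Mmp14 did without day 3 (0.69, limma adjusted p = 0.0311) and Msn without day 1 (-0.74, limma adjusted p = 0.0436).

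Of 13 tested versican proteases and partners, 7 were higher and 0 lower in dense cultures (median 0.76). Adamts5, which cleaves versican and aggrecan, had log2 values of 7.85, 8.69 and 7.71 in dense cultures, against 4.75, 5.93 and 6.79 in sparse cultures. It was 4.79-fold higher (2.26 ± 0.42, SE, limma adjusted p = 0.0308), with a gap that was smallest on day 3. Adamts1 (1.88, limma adjusted p = 0.0458) and Adamts4 (1.04, limma adjusted p = 0.0196), of the same protease family, were higher as well. Without both day 1 arrays Adamts5 had 1.84 (limma adjusted p = 0.0576) and Adamts1 1.54 (limma adjusted p = 0.0995). Adamts1 was lost in 6 of 12 alternatives, among them no filter (limma adjusted p = 0.0561), every probe set on its own (limma adjusted p = 0.0557) and quantile normalization (limma adjusted p = 0.0516). Fibronectin, Fn1, was higher by 0.97 (limma adjusted p = 0.0238). The fibrillin gene Fbn1 was higher by 1.72 (limma adjusted p = 0.00869) by the brighter of its 2 probe sets. With their mean it was higher by 0.82 (limma adjusted p = 0.0326). A mean that low requires little or no density difference in the other probe set, so the 2 disagree. By the brighter probe set Fbn1 also rose over days in dense cultures (slope 0.61, limma adjusted p = 0.0340), but not without dense day 1 (slope 0.33, limma adjusted p = 0.457). Fbln1 (0.72, limma adjusted p = 0.0521) did not pass, but did without both day 1 arrays (0.92, limma adjusted p = 0.0300). Tenascin-C, Tnc, had -0.38 (limma adjusted p = 0.489) and fell over days in dense cultures by 0.97 per day (limma adjusted p = 0.0360), but not without dense day 3 (slope -0.23, limma adjusted p = 0.680).

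Of 19 tested genes for the chondroitin sulfate chains that versican carries, 1 was higher and 0 lower (median 0.19). It was Dse, the epimerase that makes dermatan sulfate (0.86, limma adjusted p = 0.0194). Xylt2 (0.49, limma adjusted p = 0.0633) and Csgalnact2 (0.47, limma adjusted p = 0.0618) did not pass, but did with no block for the day (limma adjusted p = 0.0405 and limma adjusted p = 0.0486).

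Among 14 tested inflammatory genes, density calls were 6 higher, Il6 among them, and 1 lower (median 0.36). Cxcl5, a neutrophil attractant and one of the 3 genes closest in pattern to Tnfaip6, was higher by 5.78 (limma adjusted p = 0.00354). The cytokine gene Il6 had 4.88, 5.15 and 4.93 in dense cultures, against 2.91, 3.07 and 2.71 in sparse cultures. It was called higher in dense cultures, but the 3 sparse values lay under the filter value. Il6 passed the filter only through its dense values, so the call is no test of density. The size of the difference was not measured. The interleukin receptor gene Il1r1 (1.42, limma adjusted p = 0.0209) and the chemokine gene Ccl2 (0.87, limma adjusted p = 0.0496) were higher too. Ccl2 was lost in 9 of 12 alternatives, with a limma adjusted p of 0.0778 without both day 1 arrays, 0.106 with no block for the day, 0.0712 with quantile normalization, 0.0587 with every probe set on its own, 0.0566 with no filter and 0.0501 with the mean of probe sets; it also missed the threshold, narrowly, with an intensity trend in the variance prior. Ptgs2, the inducible cyclooxygenase gene, was lower by -1.30 (limma adjusted p = 0.0236). Lcn2 (3.47, limma adjusted p = 0.0868) and Tnf (-0.38, limma adjusted p = 0.0933) did not pass. Lcn2 had 7.23 in the dense and 7.22 in the sparse day 1 array, and passed without them (5.20, limma adjusted p = 0.00655). Tnfaip3, an inhibitor of NF-kB signalling, fell over days in dense cultures by 0.45 per day (limma adjusted p = 0.0376), but not without dense day 1 (limma adjusted p = 0.327) or day 3 (limma adjusted p = 0.174).

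**Figure D5:**
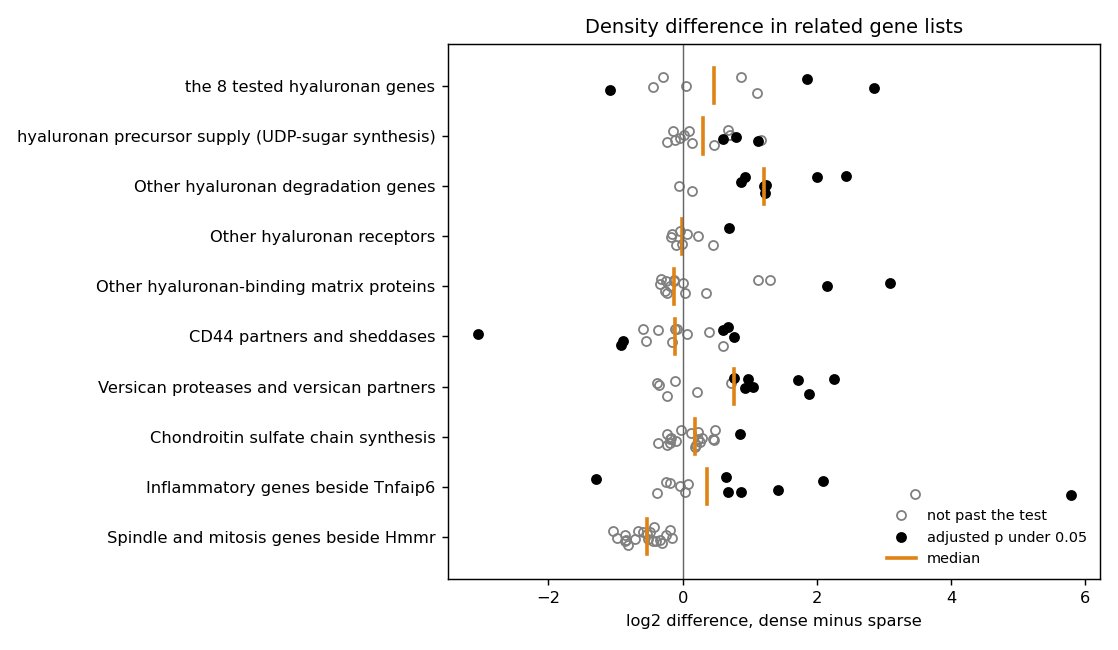
Log2 difference, dense minus sparse (x axis), of each tested gene in the related lists and of the 8 tested hyaluronan genes (rows); filled points passed limma's test at an adjusted p under 0.05, open points did not, and the coloured tick is the median of the row. The medians of the degradation list (1.22) and the versican protease and partner list (0.76) lie highest. The degradation list also holds Hpse, Naglu and Idua, which act on heparan sulfate, so its median is not one of hyaluronan enzymes alone. All 20 spindle and mitosis genes lie below 0 without passing.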

How the data were processed

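RNA from dense and sparse mouse MSC cultures was measured on 6 Affymetrix arrays, 1 per density and day. The deposited log2 values were used as the authors gave them; RMA and Partek are named in the submitters' processing notes, while the array model, the build and the annotation release are not stated there. RMA compresses differences near background, so that a dim gene's fold is understated. In the authors' deposited table each probe set also has a p-value and a signed fold change, per the file headers; the p-value was recomputed as an unpaired equal-variance comparison without the day (largest gap 0.00216). Not used were 6 columns with values of single samples.

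Symbols came from the authors' deposited table. The probe set with the highest mean stood for a symbol, and 16762 symbols at or above the 25th percentile of means (3.32) were tested with limma 3.58.1 in R 4.3.3, 2-sided, with Benjamini-Hochberg adjustment at 0.05. Density was fitted with the day as a factor, and slopes per density in a fit of density and day, each with 2 residual degrees of freedom. The number of arrays limits the precision. Same-day arrays are paired by the labelled day; across genes, the deviation from the density mean correlated between same-day arrays at 0.127, 0.0750 and 0.0674, and between different days at -0.150 to 0.109. The steps were tested on simulated data.

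Alternatives were the filter, the probe set rule, the normalization, the variance prior, the authors' p-values, a fit with no block for the day, 1 common slope, and leaving out each array or day. The 9 genes and the lists were chosen with earlier results of these data known. Named were all 9 genes; of each list, up to 5 genes past the density test with the largest difference and the 2 largest that did not pass; and the 3 genes most like each tested member. Genes past a slope test and others are named after their values were seen. One gene that the rule picks is not reported here. Promoters were matched by symbol to RefSeq (GRCm38.p6).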

Additional observations from a re-analysis of the deposited data

Results flagged for a closer look

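The slope over days differed between the densities for 2 of the 128 tested genes of the related lists by limma's test of that difference, against 0.191% of all tested genes. For the heavy chain relative Itih5 the dense slope was 0.92 and the sparse slope -0.12 per day on the log2 scale, a difference of 1.04 ± 0.13 (SE, limma adjusted p = 0.0475). For Birc5, a mitotic survival gene, the dense slope was -1.21 and the sparse slope -0.13, a difference of -1.08 ± 0.13 (SE, limma adjusted p = 0.0475). Both calls were narrow: Itih5 was lost in 4 alternatives and Birc5 in 5. With no filter both had a limma adjusted p of 0.0558, and Birc5 had 0.0643 with the filter at the median. Without the sparse day 1 array the difference was 0.92 for Itih5 and -1.11 for Birc5 (limma adjusted p = 0.957 for both). Groups of 3 arrays were not examined for outlying samples.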

How the results depend on the processing

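The direction and side of the threshold of Tnfaip6 held under all alternatives except leaving out day 2, and those of Vcan under all except that and the authors' p-values. Quantile-normalizing again called 1085 genes higher and 816 lower in dense cultures, and the authors' p-values after Benjamini-Hochberg 12 and 6. With no replicate block, that is without pairing the arrays by day, 1702 genes were higher and 516 lower; Cd44 (adjusted p = 0.0622) and, of 29 named list genes that had passed, 3 were lost, 4 others (Gnpnat1, Pgm2, Xylt2 and Csgalnact2) were gained, and Has2 had an adjusted p of 0.223. Leaving out 1 day at a time gave 0 to 1717 genes higher and 0 to 805 lower, 0 being without day 2. All density fits without the arrays of 1 day have 1 residual degree of freedom.

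For the dense slope, 1 common slope for both densities called 0 genes higher and 0 lower (2551 at an unadjusted p under 0.05), and leaving out 1 array 0 to 1132 and 0 to 1270; for the sparse slope these ranges were 0 to 497 and 0 to 858, and for the slope difference 0 to 915 and 0 to 825. The 0 counts came without a sparse array, and such fits have 1 residual degree of freedom. The sparse slope called 1 gene higher and 3 lower with no filter or the filter at the median, 29 and 17 with every probe set, 9 and 16 with an intensity trend in the variance prior, and 22 lower with arrays centred. The slope difference called 3 and 2 with no filter, 2 and 2 with the filter at the median, 41 lower with every probe set, and 32 and 52 with the trend.

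The sign of some values turned. The dense slope of Vcan was -0.035 with arrays centred, and Hyal3 had a density difference of 0.0065 with quantile normalization. Leaving out 1 array or day at a time, density differences ran from -0.11 to 0.24 for Has1, -0.89 to 0.17 for Hmmr, -0.20 to 0.031 for Hyal3, -0.026 to 0.44 for Ptprg and -0.80 to 0.20 for Tnc. Dense slopes ran from -0.27 to 0.29 for Vcan, -1.63 to 0.034 for Has2 and -0.13 to 0.37 for Tnfaip6, and sparse slopes from -0.016 to 0.14 for Has1, -0.48 to 0.44 for Hyal1 and -0.21 to 0.36 for Hyal2. Slope differences ran from -1.05 to 0.62 for Has2, -0.13 to 0.21 for Cd44, -0.070 to 0.43 for Tnfaip6 and -0.47 to 0.10 for Hyal2. The cause of these changes was not tested. No scaling moved the median difference of all genes by more than 0.1. Signal near background limits Has3, Il6 and the sparse values of Tnfaip6.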
